A study of Homo sapiens with 2 samples.

Results

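The genes described here are 10 genes that are best known from white blood cells (leukocytes), measured in SW620, an established human colorectal cancer line that was grown from a lymph node metastasis. They are TRBC1, CD3D, CD3E, CD2, PTPRC, LAPTM5, CORO1A, LYZ, CD14 and CD74, and they were chosen with their values on these arrays known, so every value below is a description. All probe sets that the platform annotation gives to exactly 1 of these symbols were taken, which made 20 probe sets of the 41092 with 1 symbol, and 0 probe sets named such a gene together with another. RNA from 2 cultures was hybridized to 1 array each. The mock knockdown culture carried a lentiviral short hairpin RNA with no target, and the SOX2 knockdown culture a lentiviral hairpin directed at SOX2, which encodes a transcription factor of stem and neural progenitor cells. By the labels both groups share the cell line, growth in RPMI medium and infection with a lentivirus. That both cultures are SW620 was not tested here, and several genes below differ by a large factor between the arrays. With 1 culture per group, any other difference between the cultures, their identity included, cannot be told apart from the knockdown. The sources used here do not say whether the infected cells were a clone or a mixed culture. The sample titles end in KO where the source names read knockdown, and a description field names liver of ECM1 knockout mice, which neither the cell line nor the human array matches. The stated question of the series is which genes depend on SOX2 in colorectal cell lines.

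With 1 array per group there were no replicates, so no difference could be tested and none has an error. The values are intensities on a linear scale made with RMA, which corrects background, normalizes between arrays and makes 1 value per probe set and array. A floor at the median of all values apart from controls, an intensity of 68.5 or 6.10 on the log2 scale, marks the level under which a value is not given as a fold. It is no detection call. A fold against a value under the floor is taken against the floor and written as "at least". Each difference is the log2 value on the SOX2 knockdown array less that on the mock array, taken from the probe set of a gene with the highest mean log2 value unless another is named. SOX2 itself, at its probe set 228038_at, went from 2077 with the mock hairpin to 20.9 with the SOX2 hairpin, at least 30.3-fold lower. Its probe set 213721_at went from 333 to 120, 2.76-fold lower, and the remaining probe sets were under the floor on both arrays, at 34.8 and 26.0 and at 59.1 and 56.6. Within this pair of arrays, the differences of probe sets of the same gene that reached the floor had a pooled SD of 0.49. This measure of spread holds no variation between cultures.

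T cells recognise antigen through a receptor whose alpha and beta chains join a variable to a constant part after DNA rearrangement, and whose CD3 chains carry the signal inward. The kinase LCK and the adaptor LAT act next to it, and the phosphatase PTPRC (CD45) keeps LCK active. Monocytes and macrophages carry CD14, which hands bacterial lipopolysaccharide to the receptor TLR4, and they secrete lysozyme, the product of LYZ, which cuts bacterial cell walls. Lysozyme is also made by glands and by Paneth cells of the gut, and constant-region transcripts of the receptor beta chain can arise without a rearranged gene. CD74, the invariant chain, fills the groove of MHC class II molecules until a peptide is loaded.

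Of the 10 genes, 6 reached the floor on at least 1 array, and these split: TRBC1 and LAPTM5 were at least 2-fold lower on the SOX2 knockdown array, LYZ and CD14 at least 2-fold higher, and CORO1A and CD74 lay within 2-fold. The other 4, PTPRC, CD3D, CD3E and CD2, were under the floor on both arrays. Among all 13609 genes that reached the floor, 7.29% were at least 2-fold lower and 8.44% at least 2-fold higher, together 15.7%. Since these genes were picked from this same contrast, nothing is read from the larger share among them. The median difference of the 6 was 0.03, against -0.0063 over all genes. By probe set, 11 of 20 reached the floor, 4 of them at least 2-fold lower and 3 higher, where 6.87% and 8.08% of 24617 probe sets were so. The remaining 4 that reached it lay within 2-fold.

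**Figure D1:**
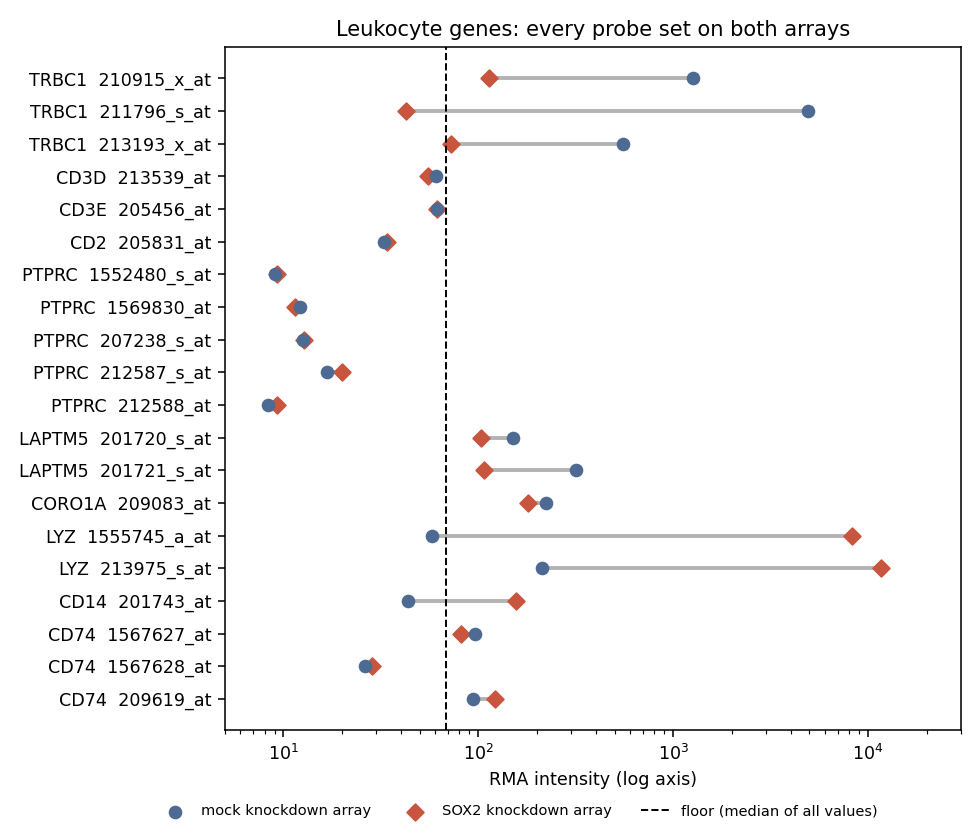
Intensity (x axis, log scale) of each of the 20 probe sets (y axis) on the mock knockdown array (circles) and the SOX2 knockdown array (diamonds), 1 array each, with the floor at 68.5 as a dashed line. All 3 probe sets of TRBC1 lie far to the right on the mock array and both of LYZ on the SOX2 knockdown array, while PTPRC, CD3D, CD3E and CD2 stay left of the floor with both symbols close together.

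TRBC1 encodes a constant region of the T cell receptor beta chain. Its probe set 211796_s_at had an intensity of 4892 with the mock hairpin and of 42.6 with the SOX2 hairpin. The probe set 210915_x_at went from 1270 to 113, and 213193_x_at from 550 to 72.4. All 3 probe sets were thus high on the mock array only. On the other array 211796_s_at lay under the floor, 213193_x_at just above it and 210915_x_at further above it. The brightest was at least 71.4-fold lower, and the other two were 11.3-fold and 7.59-fold lower, with differences of -3.49 and -2.92. All 3 thus gave the same direction but not the same fold. In Affymetrix naming the endings _s_at and _x_at mark probe sets that can match several transcripts. The constant regions TRBC1 and TRBC2 are near-identical, 0 probe sets of the annotation named TRBC2, and signal of these genes cannot be told apart here.

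Other parts of the receptor complex that had a probe set of their own did not share that pattern. The constant region genes TRAC, TRDC, TRGC1 and TRGC2 had none, so the constant part of the alpha chain was not read. CD3D, a signalling chain of the complex, stood at 60.4 and 55.4, and CD3E, its partner chain, at 61.6 and 61.5. CD3G, a further chain, was at 49.0 with the mock hairpin and 36.5 with the SOX2 hairpin. The zeta chain CD247 reached the floor in 1 of its probe sets, 234462_at, at 85.9 and 86.2. None of these chains was high on the array on which TRBC1 was. The pre-T alpha chain PTCRA, which pairs with the beta chain in immature T cells, was at 196 and 197. Of other receptor segments with a probe set of their own, TRAV12-2, TRAV8-3, TRBV16, TRBV27 and TRDV3, picked after their values were seen, 0 of 6 probe sets reached the floor, with values from 13.8 to 40.1. On the list of 11 T cell receptor and CD3 genes, 6 had a probe set of their own, 3 reached the floor and only TRBC1 of these differed by 2-fold, with a list median of 0.0044. The summed intensity of the 6 was 5345 on the mock array against 479 on the other, nearly all of the first from TRBC1.

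CD2, an adhesion receptor of T and NK cells that binds CD58, was at 32.7 and 33.9 and so under the floor on both arrays. PTPRC, present on the surface of nearly all leukocytes, had 5 probe sets, and their values ran from 8.30 to 19.9 over both arrays. Its differences lay between -0.09 and 0.26, and no probe set was close to the floor. Over the 9 probe sets of these genes and CD74 that stayed under the floor, the largest difference in either direction was 0.26. Thus PTPRC, CD2, CD3D and CD3E, the defining markers of leukocytes and of T cells, reached the floor on neither array, including the one on which TRBC1 was bright. The RNA comes from whole cultures, where fewer cells of a type and less RNA per cell cannot be told apart.

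Other T cell genes were given by a list of 20 surface and signalling genes, of which 19 had a probe set and 10 reached the floor. Of these 10, LCK and LAT were at least 2-fold lower, 0 were higher, and the median was -0.08. LCK, the kinase that phosphorylates the CD3 chains, went from 2093 to 34.1 at 204891_s_at and from 998 to 68.3 at 204890_s_at. It was at least 30.5-fold lower by the first and at least 14.6-fold lower by the other. LAT, the adaptor phosphorylated after receptor engagement, went from 571 to 276 at 211005_at and from 475 to 190 at 209881_s_at, and was 2.07-fold and 2.51-fold lower. Both LCK and LAT were therefore higher on the array with high TRBC1, in each of their probe sets. The kinase ZAP70 differed by 0.02, the coreceptor CD4 at 73.7 and 65.9, and the coreceptor CD8A, under the floor on both arrays, at 61.6 and 37.2. The summed intensity of the 19 genes was 4225 and 1766, and its largest part on the mock array was LCK, at 2093 against 34.1 on the other.

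Among genes of NK and other cytotoxic cells, GZMB and PRF1 were lower on the SOX2 knockdown array. GZMB, a protease of killer cell granules, went from 270 on the mock array to 33.3 and was at least 3.95-fold lower. PRF1, the pore-forming perforin, went from 359 to 103 at 214617_at and from 212 to 99.4 at 1553681_a_at. It was 3.48-fold lower by its brightest probe set and 2.13-fold by the other. Of 12 NK and cytotoxic genes 11 had a probe set and 6 reached the floor, with GZMB and PRF1 lower, 0 higher and a median of -0.13. The summed intensity of the 11 genes was 1197 and 707, with PRF1 and GZMB its largest parts on the mock array.

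The genes whose brightest probe sets lay nearest to TRBC1 in the plane of both log2 values were SYT1, BEX3 and GAL, at distances of 0.36, 0.62 and 0.62 log2 units, over 2 arrays and by values as deposited, which for all of them lay under the floor on the SOX2 knockdown array. SYT1, a calcium sensor of synaptic vesicles, went from 3820 to 43.7. BEX3, of the brain-expressed X-linked family, went from 5256 to 28.0, and the neuropeptide gene GAL from 6614 to 31.4. None of the 3 stands on a list of leukocyte genes used here. Likeness over 2 arrays holds little information, and the other probe set of GAL differed by only -0.41.

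LAPTM5, a lysosomal membrane protein of blood cells that sends the T cell receptor to breakdown, was lower on the SOX2 knockdown array by a smaller amount. Its probe set 201721_s_at went from 318 to 107 and was 2.98-fold lower, a difference of -1.57. The other, 201720_s_at, went from 150 to 104, a difference of -0.53, which is within 2-fold. Both probe sets were higher on the mock array, and both stayed above the floor on each array. The related LAPTM4A, found in many tissues, was at 2755 and 5678 and 2.06-fold higher, and LAPTM4B was at 7405 and 4557, with differences from -0.93 to -0.66 over its 4 probe sets. The median of the 3 LAPTM genes was -0.70.

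CORO1A, an actin-binding protein enriched in leukocytes, stood at 221 and 179 on the mock and the SOX2 knockdown array, a difference of -0.30. Its array values were above the floor on both and closer to each other than 2-fold. Among 7 coronins, 5 reached the floor, with 1 at least 2-fold higher, 0 lower and a median of 0.10. The widely expressed coronins CORO1B and CORO1C differed by 0.31 and -0.39. CORO2A was the exception, going from 40.1 to 492, at least 7.18-fold higher, and its other probe set went from 41.0 to 254.

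On the list of 22 genes of leukocytes in general, 21 had a probe set, 11 reached the floor, 2 were at least 2-fold lower and 1 higher, with a median of -0.10. LCP1, or L-plastin, an actin-bundling protein of leukocytes that many cancer cells also make, went from 2108 to 48.4 and was at least 30.8-fold lower. LAPTM5 was the other lower gene. ARHGDIB went the other way, from 195 to 940 at 201288_at and from 80.6 to 282 at 1555812_a_at, while its remaining probe set differed by 0.07. By its brightest probe set it was 4.83-fold higher. The summed intensity of the 21 genes was 4638 on the mock array against 2858 on the other. Its largest part was LCP1 on the mock array and ARHGDIB on the other.

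LYZ had the largest positive difference of the 10 genes. Its probe set 213975_s_at went from 213 on the mock array to 11691, and 1555745_a_at from 57.6 to 8241. Both probe sets were high on the SOX2 knockdown array only, the reverse of TRBC1. LYZ was 54.8-fold higher by the first probe set, with both arrays above the floor, and at least 120-fold higher by the other. CD14 went from 43.6 to 156 at its only probe set, 201743_at, and was at least 2.28-fold higher. CD14 was thus under the floor on the mock array and above it on the other.

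Other genes of monocytes, macrophages and granulocytes did not follow LYZ. Of 20 on the list, 18 had a probe set and 5 reached the floor. Of these 5, LYZ and CD14 were higher, 0 were lower and the median was 0.09. The growth factor receptor CSF1R, which defines macrophages, was at 52.2 and 55.3, under the floor on both arrays, and the granulocyte receptor CSF3R was at 106 and 113. The integrin ITGAM had the same value on both arrays, 103, at its brightest probe set, and stayed under the floor at the other, at 14.3 and 36.7. The summed intensity of the 18 genes rested on LYZ, at 1039 on the mock array against 12658 on the other.

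The partners of CD14 in sensing lipopolysaccharide were mixed. Of 10 genes 7 reached the floor, with CD14 at least 2-fold higher, LY96 at least 2-fold lower as deposited and a median of 0.13. With values under the floor raised to it, 0 of the 7 were lower. LY96 (MD-2), which binds lipopolysaccharide on TLR4, went from 79.8 to 11.7; as the floor lies close under its higher value, it was at least 1.16-fold lower. TLR4 differed by 0.18 at its brightest probe set, 1552798_a_at, from 72.7 to 82.2. In other probe sets of TLR4, singled out after their values were seen, the SOX2 knockdown array was higher, from 38.6 to 111 at 221060_s_at and from 30.3 to 115 at 224341_x_at. MYD88, the adaptor downstream, was at 1269 and 1145.

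**Figure D2:**
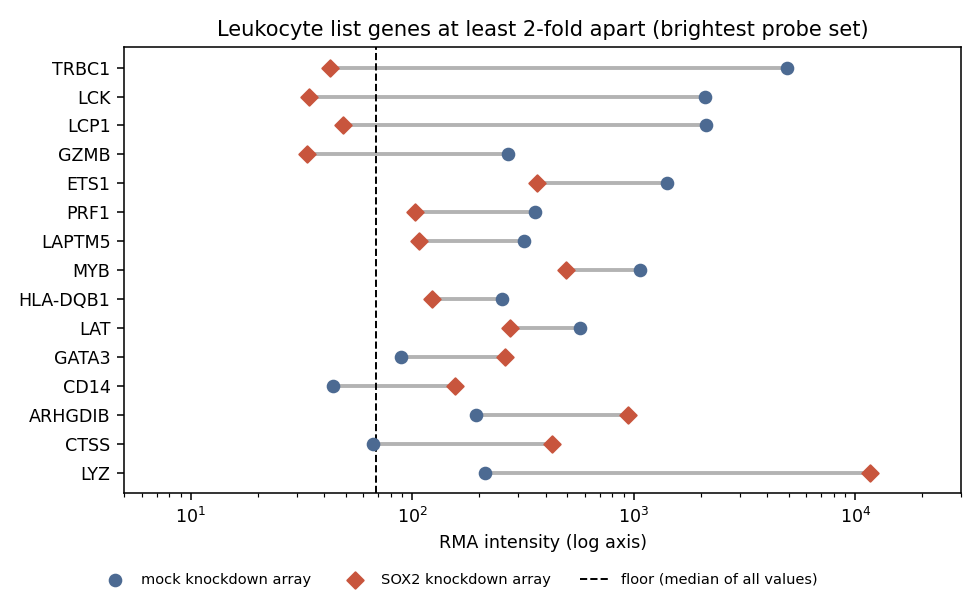
Intensity (x axis, log scale) on the mock knockdown array (circles) and the SOX2 knockdown array (diamonds) of genes on the leukocyte, MHC class II and transcription factor lists that reached the floor and were at least 2-fold apart, by brightest probe set, ordered by difference; the dashed line is the floor at 68.5. From TRBC1 down to LAT the mock array is higher, and from GATA3 down to LYZ the SOX2 knockdown array is higher.

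CD74 is the member tied to antigen presentation on MHC class II. Its probe set 209619_at stood at 94.3 and 122, a difference of 0.37, and 1567627_at at 95.8 and 81.7, a difference of -0.23. The remaining one, 1567628_at, was under the floor at 26.2 and 28.3. The probe sets of CD74 thus disagreed in sign, and all were within 2-fold. Of 17 MHC class II and loading genes, 16 had a probe set and 11 reached the floor, with 1 at least 2-fold lower, 1 higher and a median of -0.09. HLA-DRA, the alpha chain of HLA-DR, was under the floor at 62.0 and 63.4, and the class II transactivator CIITA was at 83.7 and 78.5. HLA-DQB1, a highly polymorphic beta chain, went from 254 to 123, and its 7 probe sets ranged from -2.44 to 0.09. The lowest, 212998_x_at, went from 130 to 24.0 and was at least 1.90-fold lower. The highest, 210747_at, was under the floor on both arrays, at 22.4 and 23.9. With a pseudocount of 32 added to each intensity, 0 genes of this list were at least 2-fold lower. CTSS, the cathepsin that trims the invariant chain, went from 66.1 to 425 and was at least 6.21-fold higher. Its probe set 232617_at went from 66.1 to 214, at least 3.13-fold higher. The remaining one, 202901_x_at, was under the floor on both arrays, at 12.3 and 48.4.

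Promoter sequences are shown for the members with a difference of 2-fold that have an entry, LAPTM5 and CD14, beside CORO1A and CD74, which reached the floor and lay within 2-fold. They come from RefSeq, build GRCh38.p14, read 5′ to 3′ on the strand of the gene, and run from 250 bases before to 50 bases after its start. Of the 10 genes 7 matched an entry; TRBC1, LYZ and CD3E did not. Capitals mark CTTTGT or CATTGT on either strand, letters that fit the core bound by SOX proteins.
LAPTM5 promoter, chr1:30757725-30758024, minus strand: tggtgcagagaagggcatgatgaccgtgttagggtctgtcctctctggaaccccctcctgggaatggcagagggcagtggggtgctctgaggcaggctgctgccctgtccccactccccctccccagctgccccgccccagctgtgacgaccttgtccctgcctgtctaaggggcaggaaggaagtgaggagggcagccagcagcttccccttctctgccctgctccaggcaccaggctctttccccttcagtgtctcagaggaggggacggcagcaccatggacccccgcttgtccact
CD14 promoter, chr5:140633126-140633425, minus strand: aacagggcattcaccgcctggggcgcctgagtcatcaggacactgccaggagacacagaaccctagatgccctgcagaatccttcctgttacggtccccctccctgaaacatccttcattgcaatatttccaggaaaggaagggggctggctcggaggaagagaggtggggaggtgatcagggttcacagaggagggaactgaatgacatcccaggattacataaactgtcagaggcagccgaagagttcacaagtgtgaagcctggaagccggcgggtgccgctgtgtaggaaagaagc
CORO1A promoter, chr16:30183352-30183651, plus strand: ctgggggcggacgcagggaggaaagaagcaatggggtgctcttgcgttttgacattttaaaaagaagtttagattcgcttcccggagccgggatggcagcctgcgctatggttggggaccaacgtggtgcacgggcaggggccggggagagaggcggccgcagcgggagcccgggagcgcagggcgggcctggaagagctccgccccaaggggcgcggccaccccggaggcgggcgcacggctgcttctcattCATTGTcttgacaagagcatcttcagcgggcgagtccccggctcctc
CD74 promoter, chr5:150412861-150413160, minus strand: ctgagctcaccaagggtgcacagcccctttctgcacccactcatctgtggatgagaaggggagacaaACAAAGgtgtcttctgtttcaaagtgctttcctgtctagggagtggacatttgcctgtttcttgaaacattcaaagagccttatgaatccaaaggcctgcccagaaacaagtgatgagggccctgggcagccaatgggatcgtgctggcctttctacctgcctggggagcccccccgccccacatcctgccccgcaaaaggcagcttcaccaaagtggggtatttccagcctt
The windows of LAPTM5 and CD14 held 0 matches. CORO1A held CATTGT just after its start and CD74 held CTTTGT on the opposite strand, read as ACAAAG. Among all 7 windows 3 held a match, the last being that of CD3D, which was under the floor on both arrays. Either motif stood in 24.5% of 35116 promoter windows of equal length, CTTTGT in 16.1% and CATTGT in 10.8%. A match is a description of the letters, and its absence says nothing about binding elsewhere.

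Transcription factors of lymphoid and myeloid cells were also read from a list. Of 18 genes 16 had a probe set and 10 reached the floor, with ETS1 and MYB at least 2-fold lower, GATA3 higher and a median of -0.02. ETS1, active in T cells and in invasive tumours, went from 1414 to 367, and its other probe sets differed by -1.40 and -0.79. MYB, a factor of blood progenitors and of intestinal crypts, went from 1065 to 495. GATA3, which T helper cells use, went from 88.7 to 262 at 209604_s_at. Its probe set 209603_at was under the floor on both arrays at 54.3 and 68.1, and 209602_s_at at 16.5 and 28.5. With the mean of all probe sets of a gene, or without _s_at and _x_at probe sets, 0 genes of this list were higher. RUNX3 differed by only -0.03 at its brightest probe set, 234928_x_at. RUNX3 was singled out after its values were seen because it went from 357 to 54.7 at 204197_s_at and from 309 to 26.1 at 204198_s_at. LEF1, singled out in the same way, differed by 0.02 at 221557_s_at but went from 194 to 39.9 at 221558_s_at. The choice of probe set therefore decided whether RUNX3 and LEF1 counted as lower.

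B and plasma cell genes showed no difference of 2-fold. Of 15 genes 14 had a probe set and 7 reached the floor, with 0 lower, 0 higher and a median of -0.03. MS4A1 (CD20) was under the floor in all 4 probe sets, at values up to 32.3. CD79A, a signalling chain of the B cell receptor, was at 123 and 116. The summed intensity of the 14 genes was 883 and 878. Over the 6 leukocyte lists, from T cell receptor genes to leukocytes in general, 89 of 100 genes had a probe set. Under the floor on both arrays were 47 of them, 32 lay within 2-fold, 7 were lower and 3 higher, with a median of -0.0070 over the 42 that reached the floor. The lower genes were TRBC1, LCK, LCP1, GZMB, PRF1, LAPTM5 and LAT, and the higher ones LYZ, ARHGDIB and CD14. Of all 13609 genes that reached the floor, 7.29% were at least 2-fold lower and 8.44% higher. The lists were chosen with earlier results of these data known, so nothing is read from their share.

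**Figure D3:**
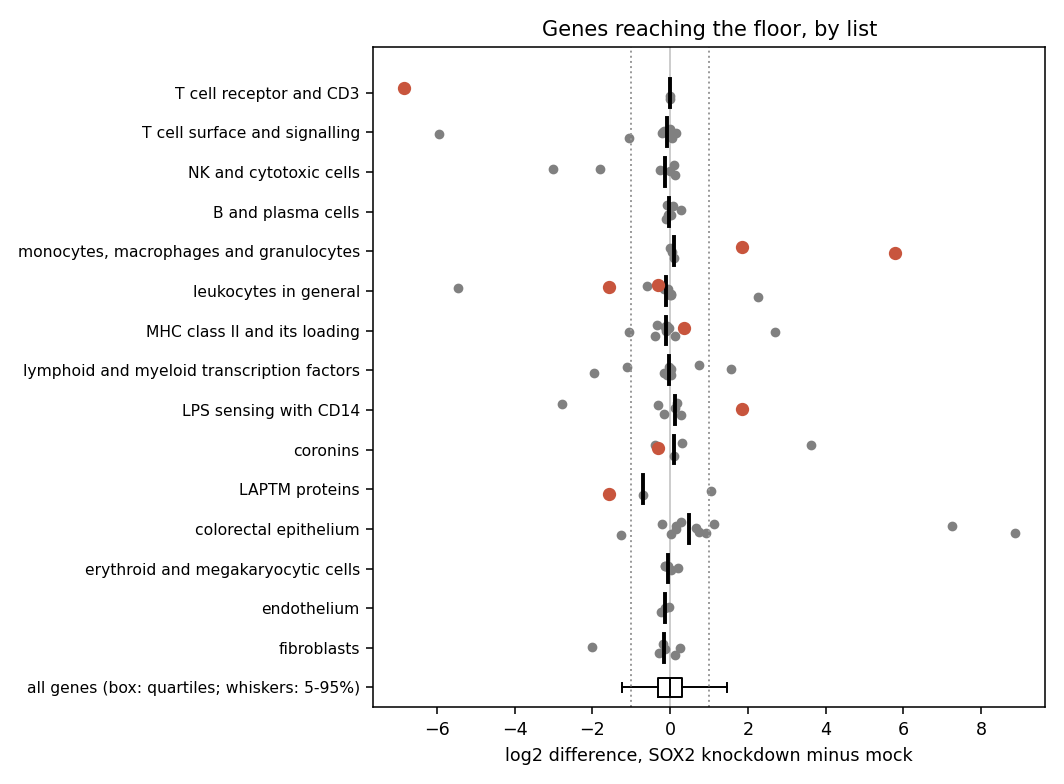
Log2 difference (x axis, SOX2 knockdown minus mock knockdown) of each gene that reached the floor, by list (y axis); red points are members, grey points other genes, black bars list medians and dotted lines the 2-fold limit, with a box for all 13609 genes at the bottom. Within the leukocyte lists most points lie close to 0 and a few lie far out, TRBC1, LCK and LCP1 to the left and LYZ to the right.

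Among markers of the labelled cell, general epithelial genes were far above the floor on both arrays, while intestinal genes were mixed. The epithelial adhesion molecule EPCAM stood at 8910 and 9898, and the keratins KRT8 and KRT18 at 10731 and 16992 and at 17410 and 21262. Nearer the floor were the intestinal genes CDX1, at 130 and 133, GPA33, at 96.9 and 84.3, and CDX2, at 69.2 and 115.7. The other probe set of CDX2 was under the floor on both arrays, at 36.3 and 28.8. All 12 colorectal epithelium genes reached the floor on at least 1 array, with VIL1 at least 2-fold lower, 3 higher as deposited and a median of 0.48. With values under the floor raised to it, 2 were higher, KRT20 and LGALS4, and the median was 0.24. The intestinal cadherin CDH17 was under the floor at 35.5 on the mock array and at 78.0 on the other, at least 1.14-fold higher. KRT20, a keratin of differentiated gut cells, went from 23.2 to 10763 and the galectin LGALS4 from 39.1 to 6010, while the microvillus protein VIL1 went from 2063 to 867. These epithelial genes moved on the same pair of arrays as LYZ and TRBC1, and their part in the leukocyte gene differences was not tested. The summed intensity of the 12 was 50677 and 80152. Genes of other cell types differed little: erythroid and megakaryocytic genes had 0 of 6 at least 2-fold apart with a median of -0.05, endothelial genes 0 of 3 with a median of -0.13, and fibroblast genes 1 of 6 as deposited with a median of -0.16. The 1 was LUM, at 71.7 and 17.8; against the floor it was at least 1.05-fold lower, so 0 of 6 were 2-fold apart with values raised to the floor. Their summed intensities were 730 and 711, 505 and 471, and 839 and 740.

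Genes next to the members on the chromosome, in RefSeq order, did not share the large differences as a group. Over the 5 measured genes on each side, the median difference was 0.09 around TRBC1, -0.04 around LAPTM5, 0.06 around LYZ and 0.06 around CD14. Around LAPTM5, 1 of 10 was at least 2-fold lower and 0 were higher: NKAIN1 went from 200.5 to 88.2, and on the same side of LAPTM5 the genes FABP3 and SDC3 differed by -0.95 and -0.79. Around TRBC1, 0 of 10 neighbours were at least 2-fold lower and 1 was higher, the Eph receptor EPHB6, from 234 to 910. Around LYZ, 2 of 10 were higher and 0 lower: MYRFL went from 27.1 to 306 and RAB3IP from 321 to 843, and both lie on the same side of LYZ. CD3D and CD3E are neighbours and share the same 10 genes, 3 of which were higher, with TMPRSS4 from 61.4 to 400. Around PTPRC, CD2, CORO1A and CD74 the medians were 0.20, 0.07, 0.06 and -0.09. Of 10 neighbours each, 1 was at least 2-fold lower and 1 higher around PTPRC, and 1 lower and 2 higher around CD2. Around CD14, 1 was lower and 0 higher, and around CORO1A and CD74 0 were past 2-fold. Over all 13609 genes that reached the floor, 7.29% were lower and 8.44% higher.

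**Figure D4:**
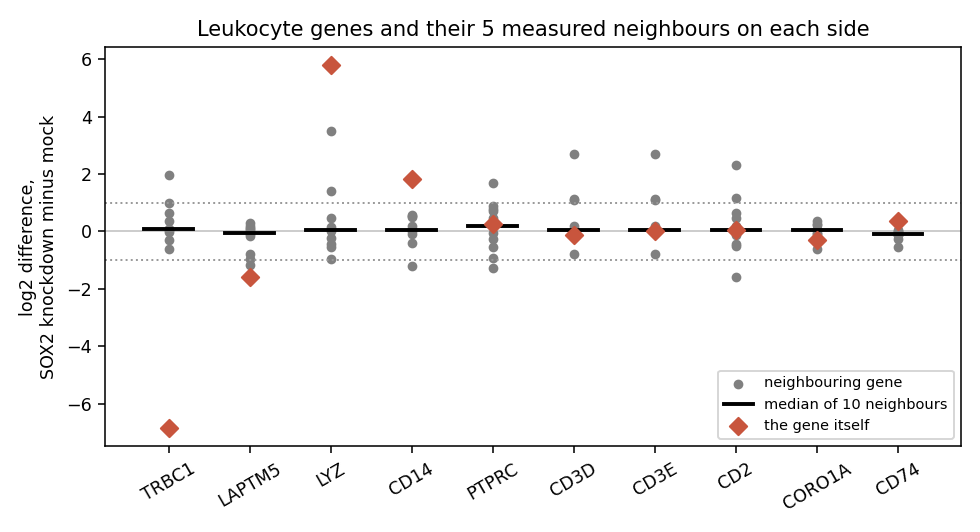
Log2 difference (y axis, SOX2 knockdown minus mock knockdown) of each member (diamonds) and of the 5 measured genes on each side of it on the chromosome (grey points), with the median of these 10 as a black bar and the 2-fold limit dotted. TRBC1, LYZ and CD14 lie outside the range of their neighbours, as do LAPTM5 and CD74 by smaller margins, while the medians of the neighbours stay between -0.09 and 0.20.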

How the data were processed

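SW620 cultures gave Trizol-extracted total RNA, labelled with biotin by an Affymetrix kit, per the labels' protocols. The deposited intensity values come from RMA, as the submitters' processing notes state. The sources used here give neither its version nor the step that returned its log2 values to a linear scale. No probe set has a detection call, and values reached 23253 and 21562. Of 54613 probe sets apart from 62 controls, 41092 had 1 symbol, 1800 several and 11721 none; the latter kinds were left unnamed.

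Log2 values were taken from the deposited intensity with no pseudocount. A gene was read from its probe set with the highest mean log2 value and entered where either array reached the floor, set at the median of values apart from controls. Of 19775 genes 13609 entered. Genes were counted past 2-fold. Nothing was tested, as each group held 1 array, whose number limits the precision. The members and the 15 gene lists were chosen with earlier results of these data known. Named by rule were all members, list genes past 2-fold (at most 4 per list and direction), defining markers, SOX2 and the 3 genes nearest to TRBC1. Further list genes, such as ZAP70, CD4, CSF3R and ITGAM, and some neighbours were named outside this rule. Neighbours were ordered by a RefSeq table of GRCh38.p14, used for order only. The alternatives covered normalization, pseudocount, floor, probe set and limit. Counting was tested on simulated arrays. Python 3.11.15, numpy 2.4.6, pandas 2.3.3, statsmodels 0.14.6 and matplotlib 3.10.9 were used.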

Additional observations from a re-analysis of the deposited data

How the results depend on the processing

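Among 367 values recomputed under 15 alternatives, 331 kept within 1 SD between probe sets of a gene (0.49) or, for counts, within 1.5 times, 36 moved and 0 members past 2-fold changed sign. Median centring, intensity-dependent centring and quantiles moved none of them. With a pseudocount of 32 TRBC1 differed by -6.05 and CD14 by 1.31, and with values raised to the floor by -6.16 and 1.19. LAT, close to the limit as deposited, was no longer 2-fold lower with that pseudocount, and 6 leukocyte list genes were lower. Averaging all probe sets of a gene gave TRBC1 -4.42, LAPTM5 -1.05 and LYZ 6.47. List medians, of few genes each, were then -2.20 for T cell receptor and CD3 (2 genes) and -0.75 for cytotoxic genes (4 genes). They were 1.84 for monocyte (3 genes) and -0.85 for transcription factor genes (6 genes). The probe set of smallest difference gave TRBC1 -2.92, LAPTM5 -0.53 and CD74 -0.23, so 1 member was lower. Without _s_at and _x_at probe sets TRBC1 and LAPTM5 had none left and 0 members were lower. LYZ then differed by 7.16, and 4 leukocyte list genes were lower. The medians were -1.80 for cytotoxic (3 genes), 0.97 for monocyte (4 genes) and 0.16 for LAPTM genes (2 genes). With the floor at the 75th percentile 1 member was higher, and the medians were -6.84 for T cell receptor, -0.62 for T cell signalling, -2.41 for cytotoxic, 5.78 for monocyte and -1.10 for transcription factor genes, from 1 to 4 genes each. When a gene had to reach the floor on both arrays, 1 member was lower, LAPTM5, and 1 higher, LYZ. TRBC1 and CD14 were then not counted, as their brightest probe sets were under the floor on 1 array. In this setting 1 member probe set was higher and 3 leukocyte list genes were lower. A limit of 1.5-fold called 2012 genes lower and 2044 higher, and one of 3-fold 467 and 604, with 1 member lower. The medians of neighbours moved by less than 0.49 with 10 on each side. With values raised to the floor, LY96, CDH17 and LUM no longer differed by 2-fold. No paired analysis was possible because each group held 1 array.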
